A study of Arabidopsis thaliana with 18 samples.

Results

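The genes of starch and sucrose metabolism were followed in seedlings of 2 ceres mutants. They are 32 loci, listed by locus identifier, that build and degrade starch, make and cleave sucrose, or carry sugars across the plasma membrane or the plastid envelope. All 32 were found among the 27628 genes of the authors' deposited table. They fall into 10 genes of starch synthesis, 11 of starch breakdown, 6 of sucrose and hexose use and 5 of sugar transport.

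Arabidopsis thaliana seedlings of ceres-1, ceres-2 and the wild type Col-0 were 9 days old and were harvested at Zeitgeber time 5, that is 5 h after the start of the light period. Both mutants are in the Col-0 background, all 3 genotypes were grown under control conditions, and the labels do not describe the lesions of the mutant alleles. CERES is a plant protein that interacts with the translation initiation factor eIF4E. Ribosome footprints and RNA were sequenced in 9 libraries each, with 3 per genotype. The labels do not say whether these came from separate cultures, so the authors' p-values may cover technical spread only. All values below are log2 fold changes over Col-0 or quantities computed from them. No values per library were analysed here, so depths are unknown and the values carry no SD or standard error. Whole seedlings were sampled, and a change within a cell type and a change in the share of that cell type cannot be told apart. A gene is called when its adjusted p in the authors' deposited table is below 0.05. RNA of CERES itself (AT4G23840) was at -4.43 in ceres-1 and -2.92 in ceres-2 (adjusted p = 5.62e-08 and 6.19e-05 in the authors' deposited table).

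Leaf starch is built in the chloroplast during the day from ADP-glucose, stored as a semicrystalline granule, and degraded at night to maltose and glucose that leave the plastid. Sucrose is made in the cytosol from triose phosphates exported in the light, moved into the phloem by efflux carriers and proton symporters, and cleaved in sink tissues by sucrose synthases and invertases. Transcripts of many of these genes, those of starch breakdown above all, cycle with the day.

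The pathway showed few called changes. SWEET12 was the single member called in any comparison, with a higher level of footprints in ceres-2. In RNA, 0 of 32 members were called in ceres-1 and 0 of 31 with an adjusted p in ceres-2, against 0.0249% and 0.137% of all genes, per the authors' deposited table. Every member with an RNA adjusted p had the same value, 0.9998 in ceres-1 and 0.9999 in ceres-2. These were also the medians of all genes tested in RNA. They do not tell the members apart, and a missing RNA call does not show an unchanged level. In footprints, the authors' deposited table calls 0 of 28 members with an adjusted p in ceres-1 and 1 of 30 in ceres-2, where 0.642% and 1.88% of all genes were called. The member in ceres-2 was higher, as were 0.733% of all genes tested there. In translational efficiency, the footprint level relative to RNA, 0 of 29 members were called in either allele, per the authors' deposited table, against 0.107% of all genes in ceres-1 and 0.041% in ceres-2. These backgrounds are low enough that a list of 32 genes with few or no calls does not stand apart. The authors used DESeq2, per the submitters' processing notes, and their deposited table lacks unadjusted p-values, so counts of 0 stand without a count by unadjusted p.

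In RNA the members lay between -0.49 and 0.36 in ceres-1 and between -0.33 and 0.53 in ceres-2, per the authors' deposited table. Footprints of the members ranged from -0.25 to 0.45 in ceres-1 and from -0.27 to 0.91 in ceres-2, per the authors' deposited table. Changes of at least 1.5-fold were reached by 0 members in RNA of either allele, 0 in ceres-1 footprints and 2 in ceres-2 footprints. Of all genes with an adjusted p, 17.2% reached that size in ceres-1 RNA and 4.5% in ceres-2 RNA, and 1.4% in ceres-1 footprints and 3.05% in ceres-2 footprints. Those genes numbered 24142 and 19000 in RNA of ceres-1 and ceres-2, and 9967 and 14453 in footprints. The shares thus cover different sets of genes, and the members were not matched to them by expression level. The 2 members, GPT2 and BAM5, have no footprint adjusted p, per the authors' deposited table, and so are not among the genes behind the ceres-2 footprint share.

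**Figure D1:**
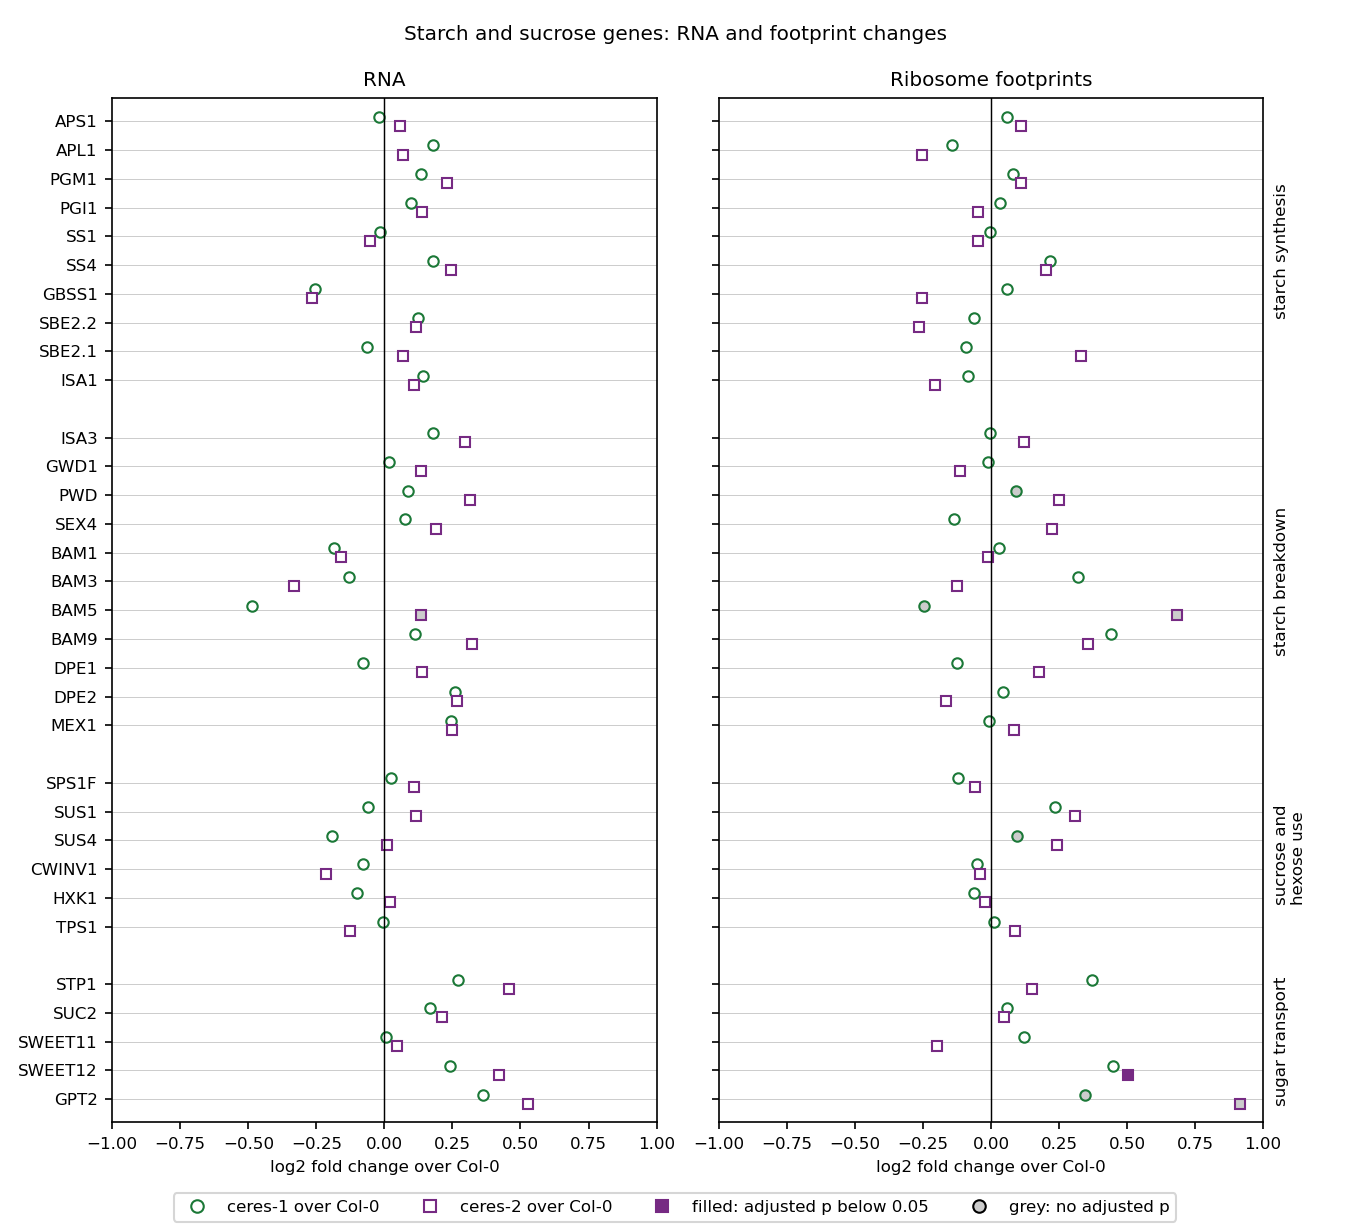
Log2 fold changes over Col-0 of the 32 genes (rows, grouped by role) in RNA (left) and ribosome footprints (right), with circles for ceres-1 and squares for ceres-2. A filled coloured symbol has an adjusted p below 0.05 and a grey one has no adjusted p. SWEET12 in ceres-2 footprints, at 0.50, is the single filled symbol, and the sugar transport rows lie above 0 in RNA.

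Starch synthesis begins with the supply of ADP-glucose. PGI1 (AT4G24620) and PGM1 (AT5G51820), the plastid isomerase and mutase that turn fructose phosphate into the glucose phosphate used for it, had footprint changes between -0.048 and 0.11, per the authors' deposited table. The ADP-glucose pyrophosphorylase commits carbon to starch and is made of small and large subunits. Its small subunit APS1 (AT5G48300) had footprint changes of 0.061 in ceres-1 and 0.11 in ceres-2, per the authors' deposited table. The main leaf large subunit APL1 (AT5G19220) was at -0.14 and -0.25 in footprints of ceres-1 and ceres-2 (adjusted p = 0.804 and 0.148 in the authors' deposited table). APL1 RNA was at 0.18 and 0.067, so footprint minus RNA came to -0.32 in each allele (efficiency adjusted p = 0.479 and 0.712, from the authors' deposited table). APS1 and APL1 thus had values on opposite sides of 0 in footprints, and the difference between them was not tested. The large subunits outside the list lay on both sides of 0. In footprints of ceres-1 and ceres-2, APL2 was at 0.28 and 0.0020 and APL4 at 0.15 and 0.43. APL3 was at -0.16 and -0.024. The values of APS1 and APL1 therefore do not show a split between small and large subunits.

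The enzymes that build the glucan were not called either. SS1 (AT5G24300), which extends short chains, was within 0.054 of 0 in RNA and footprints of both alleles, per the authors' deposited table. SS4 (AT4G18240), needed to initiate granules, had footprint changes of 0.22 and 0.20 in ceres-1 and ceres-2, beside RNA changes of 0.18 and 0.25, per the authors' deposited table. The granule-bound synthase GBSS1 (AT1G32900), which makes amylose and whose transcript is under clock control, was at -0.26 in ceres-1 and -0.27 in ceres-2 in RNA, per the authors' deposited table. Its footprints were at 0.058 in ceres-1 and -0.25 in ceres-2 (adjusted p = 0.963 and 0.455 in the authors' deposited table). The branching enzymes SBE2.2 (AT5G03650) and SBE2.1 (AT2G36390) overlap in function. In ceres-2 footprints the authors' deposited table puts SBE2.2 at -0.27 (adjusted p = 0.267) and SBE2.1 at 0.33 (adjusted p = 0.286), with RNA at 0.12 and 0.067. In ceres-1 footprints both lay below 0, at -0.063 and -0.093, per the authors' deposited table. The isoamylase ISA1 (AT2G39930), which trims misplaced branches during synthesis, was at -0.083 and -0.21 in footprints of ceres-1 and ceres-2, per the authors' deposited table. As a group, the 10 genes had a median footprint change of 0.015 in ceres-1 and -0.048 in ceres-2, from the authors' deposited table. All genes tested in footprints had a median of 0.0064 for ceres-1 and 5.5e-04 for ceres-2.

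Starch breakdown opens with phosphorylation of the granule surface. The glucan, water dikinase GWD1 (AT1G10760, also SEX1) had footprint changes of -0.010 and -0.12 in ceres-1 and ceres-2, per the authors' deposited table. PWD (AT5G26570), which acts on glucans already phosphorylated by GWD1, was at 0.092 in ceres-1 and 0.25 in ceres-2 footprints, per the authors' deposited table, without an adjusted p in ceres-1. The phosphatase SEX4 (AT3G52180), which removes these phosphates again, was at -0.13 and 0.22 (adjusted p = 0.905 and 0.635 in the authors' deposited table). The debranching isoamylase ISA3 (AT4G09020) had footprint changes of -0.0051 and 0.12, and RNA changes of 0.18 and 0.30, in ceres-1 and ceres-2, per the authors' deposited table. These 4 genes had RNA changes above 0 in each allele, between 0.016 and 0.32, and none was called.

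The beta-amylases release maltose from the exposed chains. BAM3 (AT4G17090), the main leaf enzyme at night, was at 0.32 in ceres-1 footprints (adjusted p = 0.416) and -0.12 in ceres-2 footprints (adjusted p = 0.906), per the authors' deposited table. Its RNA was at -0.13 and -0.33, which gives footprint minus RNA values of 0.45 and 0.21 from the authors' deposited table. The efficiency adjusted p of BAM3 in ceres-1, 0.366, was the smallest of any member in that allele, per the authors' deposited table. BAM1 (AT3G23920), a plastid enzyme with a role in stress and guard cells, was at 0.029 and -0.011 in footprints and -0.18 and -0.16 in RNA of ceres-1 and ceres-2, per the authors' deposited table. BAM9 (AT5G18670), a plastid protein of the family that lacks catalytic activity, had footprint changes of 0.44 and 0.36 in ceres-1 and ceres-2 (adjusted p = 0.357 and 0.328 in the authors' deposited table). BAM5 (AT4G15210), a beta-amylase outside the plastid, was at -0.25 in ceres-1 and 0.68 in ceres-2 footprints, per the authors' deposited table, without an adjusted p in either. In RNA and in footprints the 4 genes lay on both sides of 0 in each allele. Footprint minus RNA lay above 0 for all 4 in each allele, between 0.21 and 0.45 in ceres-1 and between 0.035 and 0.55 in ceres-2, from the authors' deposited table. None of them was called in efficiency, where BAM5 has no adjusted p. The beta-amylases outside the list lay on both sides of 0 in footprint minus RNA. In ceres-1, BAM2, BAM4 and BAM8 were at 0.24, 0.060 and 0.059, and BAM6 and BAM7 at -0.51 and -0.051. In ceres-2, BAM2 was at 0.21, and BAM4, BAM6, BAM7 and BAM8 at -0.19, -0.62, -0.35 and -0.27. The values of the 4 members therefore do not show a lean of the whole family.

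The maltose route out of the plastid was not called. The plastid disproportionating enzyme DPE1 (AT5G64860), which recycles short glucans, was at -0.13 and 0.18 in footprints of ceres-1 and ceres-2, per the authors' deposited table. DPE2 (AT2G40840), the cytosolic transglucosidase that uses the exported maltose, had RNA changes of 0.26 and 0.27 and footprint changes of 0.045 and -0.17, per the authors' deposited table. Its footprint minus RNA value of -0.43 in ceres-2 came with an efficiency adjusted p of 0.694, the smallest of any member in that allele, per the authors' deposited table. MEX1 (AT5G17520), the maltose exporter of the plastid envelope, was at 0.24 and 0.25 in RNA and at -0.0089 and 0.086 in footprints of ceres-1 and ceres-2, per the authors' deposited table. The 11 breakdown genes had a median footprint change of -0.0051 in ceres-1 and 0.12 in ceres-2, and a median RNA change of 0.076 and 0.19, from the authors' deposited table. All genes tested in RNA had a median of -0.0041 in ceres-1 and -0.0048 in ceres-2.

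The MEX1 values are uncertain because the gene shares sequence with a nearby locus on chromosome 5, AT5G17523. In RefSeq transcripts of assembly TAIR10.1, 52.2% of the 28-base windows of the MEX1 coding sequence also occur in that gene. Windows of 28 bases were chosen here to stand for a short read, since read lengths are not stated in the labels. The longest identical stretch spans 664 bases from the start codon of MEX1. Its first 120 bases are shown because a read from them cannot be assigned to either gene, with the start codon first.
MEX1 and AT5G17523: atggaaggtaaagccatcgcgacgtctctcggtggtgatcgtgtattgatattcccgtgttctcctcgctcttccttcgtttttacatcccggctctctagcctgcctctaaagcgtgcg
AT5G17523 itself was at -0.18 and 0.067 in footprints of ceres-1 and ceres-2 (adjusted p = 0.918 and 0.973 in the authors' deposited table). How the authors' counting treated reads that match several places is not stated in the labels. Apart from MEX1, no member shared more than 1.42% of its windows with another gene, and 20 of the 32 shared none.

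Sucrose synthesis, sucrose cleavage and hexose sensing showed small changes and no call. SPS1F (AT5G20280), a sucrose phosphate synthase, was at -0.12 and -0.057 in footprints of ceres-1 and ceres-2, per the authors' deposited table. The sucrose synthases SUS1 (AT5G20830) and SUS4 (AT3G43190), close relatives induced by low oxygen, had footprint changes of 0.24 and 0.095 in ceres-1 and of 0.31 and 0.24 in ceres-2, per the authors' deposited table. Of these 4 values, SUS1 in ceres-2 had the smallest adjusted p, 0.269, and SUS4 in ceres-1 had none. Footprint minus RNA of SUS1 was 0.30 and 0.19, and that of SUS4 was 0.29 and 0.24, in ceres-1 and ceres-2 from the authors' deposited table. The coding sequences of SUS1 and SUS4 can mostly be told apart, since 1.42% of the SUS1 windows of 28 bases occur in SUS4. Their longest identical coding stretch, at bases 865 to 902 of each coding sequence in RefSeq TAIR10.1, is shown as an example of where reads of the pair can be confused.
SUS1 and SUS4: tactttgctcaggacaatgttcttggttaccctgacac
The cell wall invertase CWINV1 (AT3G13790), which splits sucrose outside the cell, was at -0.052 and -0.040 in footprints of ceres-1 and ceres-2, per the authors' deposited table. HXK1 (AT4G29130), a hexokinase that is also a glucose sensor, was at -0.062 and -0.020, per the authors' deposited table. TPS1 (AT1G78580) makes trehalose phosphate, a signal of sucrose status, and was at 0.012 and 0.088 in footprints of ceres-1 and ceres-2, per the authors' deposited table. RNA of the 6 genes lay between -0.19 and 0.025 in ceres-1 and between -0.21 and 0.12 in ceres-2, per the authors' deposited table.

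Sugar transport held the called gene. SWEET12 (AT5G23660), a sucrose efflux carrier that works with SWEET11 in feeding the phloem, was at 0.50 in ceres-2 footprints, per the authors' deposited table, a 1.42-fold higher level (adjusted p = 0.00942). In ceres-1 footprints it was at 0.45, per the authors' deposited table, a 1.36-fold level that was not called (adjusted p = 0.292). By adjusted p it ranked 164th among the 272 genes called in ceres-2 footprints. SWEET12 RNA was at 0.24 in ceres-1 and 0.42 in ceres-2, per the authors' deposited table, neither called, with an adjusted p of 0.9998 and 0.9999. Every member with an RNA adjusted p had these same values. Footprint minus RNA came to 0.20 in ceres-1 and 0.080 in ceres-2 (efficiency adjusted p = 0.850 and 0.997, from the authors' deposited table). The SWEET12 value in ceres-2 footprints thus lay close to that in ceres-2 RNA, and efficiency was not called. Its partner SWEET11 (AT3G48740) was at 0.12 and -0.20 in footprints of ceres-1 and ceres-2 (adjusted p = 0.904 and 0.639 in the authors' deposited table), with RNA at 0.0046 and 0.045. The difference between the partners was not tested. The windows around their start codons, 12 bases of leader and 18 coding bases in RefSeq TAIR10.1 transcripts, are shown as the place where ribosomes begin on each mRNA, with the start codon in capitals.
SWEET12: agatcgacattcATGgctctcttcgacact
SWEET11: aacttatataccATGagtctcttcaacact
Of the SWEET12 coding windows of 28 bases, 0.241% occur in SWEET11, so reads of the pair can be told apart almost everywhere.

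The other transporters were not called. STP1 (AT1G11260), a proton symporter for hexoses, was at 0.27 and 0.46 in RNA and 0.37 and 0.15 in footprints of ceres-1 and ceres-2, per the authors' deposited table. SUC2 (AT1G22710), the sucrose symporter of phloem loading, was at 0.058 and 0.047 in footprints and 0.17 and 0.21 in RNA, per the authors' deposited table. GPT2 (AT1G61800), a plastid glucose phosphate translocator whose transcript responds to sugars and light, had the highest RNA change of any member in each allele, at 0.36 and 0.53, per the authors' deposited table. Its footprints were at 0.35 and 0.91 in ceres-1 and ceres-2, per the authors' deposited table, without an adjusted p in either, and they carry no call. The 5 transporters had a median RNA change of 0.24 in ceres-1 and 0.42 in ceres-2, with each of the 5 above 0 in each allele, from the authors' deposited table. In footprints their median came to 0.35 for ceres-1 and 0.15 for ceres-2, with 5 and 4 above 0, from the authors' deposited table. The alleles were compared with the same Col-0 libraries, so the values of ceres-1 and ceres-2 are not independent.

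Over the whole list, RNA leaned above 0 in ceres-2, where 26 of 32 members lay above 0 with a median of 0.13, from the authors' deposited table. Of all genes tested there, 49.1% lay above 0. The lean was not particular to the list. Of 77 further genes of the same pathways with an RNA change, 56 lay above 0 in ceres-2, with a median of 0.091. In ceres-1 RNA 19 of 32 members lay above 0 with a median of 0.051, against 49.3% of all genes, from the authors' deposited table. Footprints had 18 of 32 members above 0 in each allele, with medians of 0.031 in ceres-1 and 0.087 in ceres-2, from the authors' deposited table. The shares of all genes above 0 in footprints were 51.4% in ceres-1 and 50.1% in ceres-2. The 32 genes were chosen with earlier results of these data known and are not replicates, so these counts are a description and were not tested. In ceres-1 footprints 21 of the 32 members lay between the quartiles of all genes tested, -0.12 and 0.12. In ceres-2 footprints 14 of 32 lay between the quartiles there, -0.15 and 0.13.

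**Figure D2:**
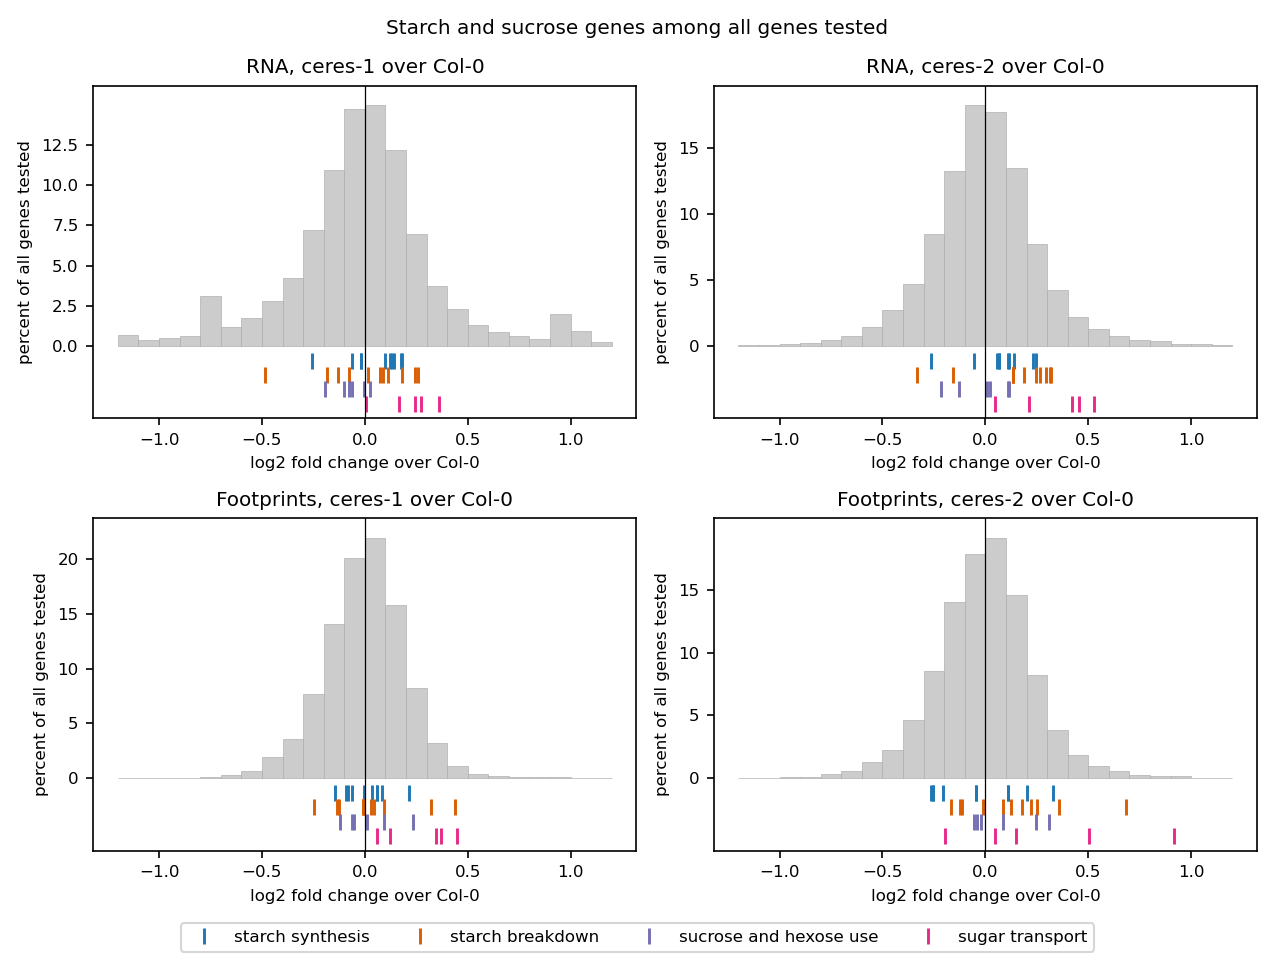
Log2 fold changes over Col-0 of all genes with an adjusted p (grey bars, percent of genes per bin of 0.1) and of the 32 genes (coloured ticks, 1 row per role, tick height without meaning) in RNA and footprints of ceres-1 and ceres-2. Genes beyond 1.2 in either direction, at most 5.16% of those tested in a panel, are not drawn. In ceres-2 RNA, 26 of the 32 ticks lie above 0.

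Over the whole list, footprints relative to RNA showed no common direction. Footprint minus RNA, on the log2 scale, is used for direction and size. The efficiency fold changes in the authors' deposited table track the footprint ones and differed from them by at most 0.026 over the 29 members that have both. The median difference came to 0.0086 in ceres-1, with 17 of 32 members above 0, and -0.017 in ceres-2, with 16 above 0, from the authors' deposited table. Starch synthesis genes had medians of -0.041 and -0.083, and starch breakdown genes -0.027 and 0.035, in ceres-1 and ceres-2 from the authors' deposited table. Sucrose and hexose genes were at 0.032 and 0.18, and transporters at 0.10 and -0.17, from the authors' deposited table. Across the 29 members tested for efficiency, RNA and footprint changes correlated with Pearson's r of 0.21 and Spearman's rho of 0.15 in ceres-1. In ceres-2 they correlated with r of 0.52 and rho of 0.52. Over all genes tested for efficiency, r was 0.016 and rho -0.047 in ceres-1, and r was 0.18 and rho 0.061 in ceres-2. These are correlations across genes, which are not independent replicates, and in each of them all genes share the same libraries. The members were not matched to all genes by expression level, and the difference between these correlations was not tested.

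**Figure D3:**
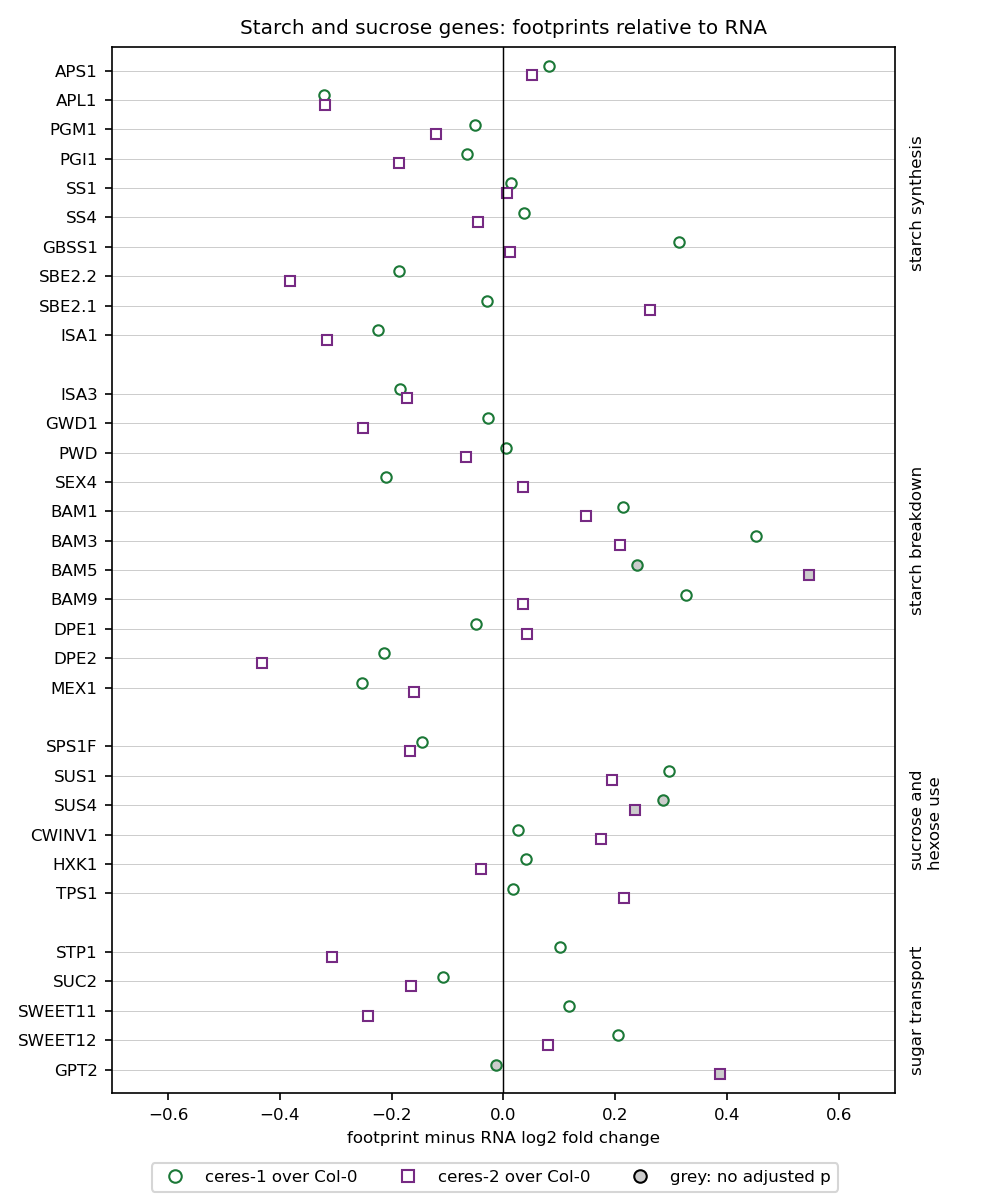
Footprint minus RNA log2 fold change of the 32 genes (rows, grouped by role), with circles for ceres-1 and squares for ceres-2, both over Col-0. No member had an efficiency adjusted p below 0.05, and grey symbols have none. BAM3 at 0.45 in ceres-1 and DPE2 at -0.43 in ceres-2 had the smallest efficiency adjusted p of any member in their alleles.

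Features of the mRNAs that bear on initiation were read from RefSeq TAIR10.1, with the transcript of the lowest accession per gene. The 32 members had 5′ leaders of 38 to 681 bases, with a median of 194.5 against 171 in 22893 nuclear genes with an annotated leader. The motif ATG, searched on the sense strand of the leader, occurred in 17 of 32 members and in 58.3% of those genes. A purine stood 3 bases before the start codon in 22 of 32 members and in 74.5% of nuclear genes. The 17 members with an upstream ATG, SWEET12, SUS1 and SUS4 among them, had a median footprint minus RNA of -0.048 in ceres-1 and 0.0062 in ceres-2. The 15 members without had 0.017 in ceres-1 and -0.041 in ceres-2. The difference between these medians was not tested, and the match of a motif does not show that it is used.

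A further 78 genes of the same pathways, the isoforms and steps outside the 32, were counted in the same way. In RNA, 0 of 77 were called in ceres-1 and 0 of 75 in ceres-2, and in efficiency 0 of 60 in either allele, per the authors' deposited table. In footprints, 1 of 52 was called in ceres-1 and 1 of 70 in ceres-2, both lower, per the authors' deposited table, where 0.291% of all genes were lower in ceres-1 and 1.15% in ceres-2. The gene called in ceres-1 was SWEET15 (AT5G13170, also SAG29), a sucrose efflux carrier induced in senescence, at -0.78 (adjusted p = 0.00137 in the authors' deposited table). In ceres-2 footprints SWEET15 was at -1.27 in the authors' deposited table without being called (adjusted p = 0.206), and its RNA was at -0.43 in ceres-1 and -0.27 in ceres-2. The gene called in ceres-2 was TPT (AT5G46110), the triose phosphate translocator that exports the day's photosynthate for sucrose synthesis, at -0.48 (adjusted p = 3.04e-06 in the authors' deposited table). TPT footprints were at -0.30 in ceres-1 (adjusted p = 0.246 in the authors' deposited table), and its RNA was at -0.090 and -0.081 in ceres-1 and ceres-2. The 16 sugar transport genes among the 78 did not share the lean of the 5 transporters above in footprints, with 6 of 16 above 0 and a median of -0.038 in ceres-1, and 7 of 16 and -0.020 in ceres-2, from the authors' deposited table. In RNA 9 of these 16 lay above 0 in ceres-1 and 13 in ceres-2, with medians of 0.043 and 0.073, from the authors' deposited table. A call in 1 allele and not in the other does not show that the alleles differ, and no contrast between the alleles was tested.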

How the data were processed

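The submitters' processing notes name TopHat2 2.1.0 for alignment, featureCounts 1.6.2 for gene counts and DESeq2 for the comparisons. They give no genome build, annotation release, strand setting or rule for reads matching several places. The deposited values are, per the file headers, log2 fold changes (ceres-1 or ceres-2 over Col-0) of RNA, footprints and efficiency, and the authors' adjusted p-values. Some genes have no adjusted p, and no values per library were analysed here. RNA libraries are those whose labels do not name footprints.

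No new fit was made. The authors' adjusted p-values were used with a threshold of 0.05, and the genes that have one differ between the comparisons. Medians, counts and footprint minus RNA differences were computed with pandas 2.3.3 in Python 3.11.15. RefSeq TAIR10.1 served for symbols, transcripts and sequences only, without coordinates. All 32 members and 78 further pathway genes matched a locus there, and 5 symbols of the 78 were in neither source. Sequence routines were tested on simulated data. All members are named, and further genes only if called or if compared with members of the same enzyme family. Members and lists were chosen with earlier results of these data known. Alternatives were thresholds of 0.01 and 0.1, a minimum of 1.5-fold, other member subsets, centring and the deposited efficiency column.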

Additional observations from a re-analysis of the deposited data

How the results depend on the processing

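The count of members called in ceres-2 footprints was 1 at thresholds of 0.05, 0.01 and 0.1, and 0 when a change of at least 1.5-fold was also asked for, since SWEET12 lay at 0.50 against a minimum of 0.58. The call of TPT (-0.48) also ended under that minimum, and that of SWEET15 (-0.78) did not. The 5 other counts stayed at 0 under the 3 alternatives each. The 6 medians moved by less than 0.1 under all 38 alternatives, which took members with an adjusted p in every comparison, centred on all genes, left out each role or used the deposited efficiency column. That limit is larger in size than each of these medians except that of ceres-2 RNA, so staying within it does not show a stable median. Centring can move a median only by the median of all genes, which lay near 0. The ceres-2 RNA median stayed between 0.11 and 0.14, the ceres-1 RNA median between 0.016 and 0.11 and the ceres-2 footprint median between 0.018 and 0.11. The ceres-1 footprint median lay between -0.0030 and 0.058, and the footprint minus RNA medians between -0.020 and 0.024 in ceres-1 and between -0.056 and 0.044 in ceres-2, so these 3 did not keep their sign. The upper ends 0.024 and 0.044 came from the deposited efficiency column, which tracks footprints. Under the other alternatives the highest footprint minus RNA medians were 0.021 in ceres-1 and 0.035 in ceres-2. No paired analysis was possible because only fold changes between groups of libraries were analysed, and for the same reason no replicate could be left out. Depth per library is unknown, so the smallest change that the tests could detect is unknown too.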
